A study of Mus musculus with 4 samples.

Results

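The Bcl2 family decides whether the outer membrane of the mitochondrion stays intact, and 10 of its genes were described in mouse macrophages with and without OGT. They were taken by symbol from a table of 52550 Ensembl genes, and all 10 were found in it. By role they are the anti-apoptotic Bcl2, Bcl2l1 (Bcl-xL) and Mcl1, the pore-forming effectors Bax and Bak1, and the BH3-only genes Bid, Bcl2l11 (Bim), Bbc3 (Puma), Pmaip1 (Noxa) and Bad.

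The cells were bone marrow-derived macrophages, which form when marrow is cultured with the lineage factor M-CSF, here at 20 ng/mL over 7 days. The 4 groups were OGT knockout (KO) at 24 h and at 0 h, and wild type (WT) at 24 h and at 0 h, where the time is that spent with 20 ng/mL of IL-4. OGT attaches O-linked N-acetylglucosamine to proteins of the nucleus and cytoplasm. The design asks how its loss alters expression as macrophages take on the alternatively activated (M2) state. All 4 groups carry the same treatment tag, and the 0 h cells were read as unstimulated from their time. The sources used here do not give how the knockout was made, in which cells, or the age and strain of the mice. Each group held 1 library, so the spread between cultures is unknown and no p-value is given. No group was labelled as kept for 24 h in the absence of IL-4, so the effects of IL-4 and of time in culture cannot be told apart.

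Anti-apoptotic members bind the BH3 helix of their relatives and so hold the effectors in check. BH3-only proteins carry death signals from outside the mitochondrion, and once they fill the grooves of the anti-apoptotic proteins, Bax and Bak1 assemble into pores that release cytochrome c. In macrophages, survival signalling through the M-CSF receptor keeps this balance on the side of life, and Mcl1, a protein with a very short half-life, is among its main guards.

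The helix that these proteins share is encoded by the stretches below, shown because they define the family. Each is 27 bases of coding sequence in the orientation of the mRNA, read from GENCODE M21 transcripts on GRCm38. Capitals mark the codon of the leucine that opens the BH3 core and the codon pair that ends it, glycine and aspartate in most members.
Bcl2, chr1:106712575-106712601, − strand: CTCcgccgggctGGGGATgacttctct
Bcl2l1, chr2:152829697-152829723, − strand: CTGagagaggcaGGCGATgagtttgaa
Mcl1, chr3:95659436-95659462, + strand: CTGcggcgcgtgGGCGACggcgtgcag
Bax, chr7:45465997-45466023, − strand: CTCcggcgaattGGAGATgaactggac
Bak1, chr17:27022531-27022557, − strand: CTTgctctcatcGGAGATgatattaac
Bid, chr6:120897289-120897315, − strand: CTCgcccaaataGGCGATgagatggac
Bcl2l11, chr2:128147150-128147176, + strand: CTGcggcggatcGGAGACgagttcaac
Bbc3, chr7:16313773-16313799, + strand: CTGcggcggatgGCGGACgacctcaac
Bad, chr19:6950792-6950818, + strand: CTCcgaaggatgAGCGATgagtttgag
A search for leucine, any 3 residues, glycine and aspartate found the core once in each of the 7 proteins from Bcl2 to Bcl2l11 in this list. Bbc3 and Bad had no such match. When alanine or serine was also allowed in place of the glycine, a choice made after that result, each of them had 1 match.

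Levels are the authors' FPKM values, fragments per kilobase of transcript and scaled to sequencing depth, so genes can be compared with each other. Differences are log2 ratios of FPKM + 1, which understate the change of genes near or below 1 FPKM. Genes below 1 FPKM in every library of a comparison were left out of it, and a gene is called higher or lower only at 2-fold or more on that scale. Library totals ran between 338704 and 353093 FPKM, with 10922 to 11168 genes at 1 FPKM or more. Mitochondrial genes took 8.99% and 7.47% of the total in the KO at 24 h and 0 h, against 9.01% and 6.28% in WT, so their share was higher at 24 h in both genotypes, and its part in the differences with time was not tested. A step that recurs among the low values of genes with 1 exon gave a rough depth of 20200000 to 22000000 fragments per library. It holds for a minority of those values, 168 to 184 of the 962 to 985 used per library, to within 1% of a multiple of up to 3. Ogt was at 14.5 FPKM in the KO at 24 h and 14.2 in the KO at 0 h, against 29.8 in WT at 24 h and 27.4 in WT at 0 h. The KO libraries thus held 0.485 times the WT level at 24 h and 0.518 times at 0 h, so the Ogt transcript was reduced and not absent. All 10 macrophage markers were above 1 FPKM in all 4 libraries. With time 7 were lower by 2-fold or more in the KO and 6 in WT, where 5.99% and 6.26% of all genes were. Cd14 had the largest of these differences (−3.06 and −3.63), and Csf1r and Cd68 stayed under 2-fold. Between genotypes 1 of 10 passed 2-fold at 24 h, Itgam (−1.07), where 1.45% of all genes did. The 12 neutrophil markers summed to 734 and 2190.3 FPKM in the KO at 24 h and 0 h, against 1093 and 3383 in WT. The 9 stromal and platelet markers summed to 33.2 and 54.6 FPKM in the KO at 24 h and 0 h, against 55.1 and 113 in WT. Most of that sum was Pf4 (25.4 and 41.5 FPKM in the KO, 40.5 and 82.6 in WT). Of the 9 markers, 7 were at 1 FPKM or more in WT at 0 h and 4 in each other library. In bulk RNA, fewer cells of a type and less RNA per cell cannot be told apart.

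Mcl1 stood far above the other listed members in all 4 libraries. Outside the list, the relative Bcl2a1b, described below, reached 106 FPKM in WT at 24 h. Mcl1 was measured at 215 FPKM in the KO at 24 h and 309.6 in the KO at 0 h, against 180.0 in WT at 24 h and 269 in WT at 0 h. Both KO libraries were above their WT counterparts, by 0.26 at 24 h and 0.20 at 0 h on the log2 scale. The 24 h libraries were the lower ones in both genotypes, by 0.52 in the KO and 0.58 in WT. Mcl1 supplied between 95.6% and 98.1% of the summed FPKM of the 3 anti-apoptotic members, so that sum followed it closely. The sum came to 222 and 316 FPKM in the KO at 24 h and 0 h, and to 188 and 278 in WT.

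Bcl2l1 encodes Bcl-xL, a stable guard that binds both effectors. Its level was 5.04 FPKM in the KO at 24 h and 5.66 in the KO at 0 h, against 6.78 in WT at 24 h and 8.58 in WT at 0 h. Both KO values thus lay below both WT values, with log2 differences of −0.37 at 24 h and −0.52 at 0 h, neither of them 2-fold. Bcl2, the founding member, was the least abundant of the 10 in every library. It was at 1.28 FPKM in the KO at 24 h and 0.304 in the KO at 0 h, against 1.49 in WT at 24 h and 0.544 in WT at 0 h. The 24 h libraries were the higher ones in both genotypes, by 4.21 times in the KO and 2.73 times in WT as plain ratios of FPKM. With the pseudocount these become log2 differences of 0.81 and 0.69, under 2-fold, while a pseudocount of 0.1 FPKM gives 1.77 in the KO and 1.30 in WT. Both 0 h values were below the 1 FPKM filter. At this level a counting error of about 15.1% applies to the lowest library, estimated from its longest transcript. An annotated gene on the opposite strand, D630008O14Rik, shares exon sequence with Bcl2.

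**Figure D1:**
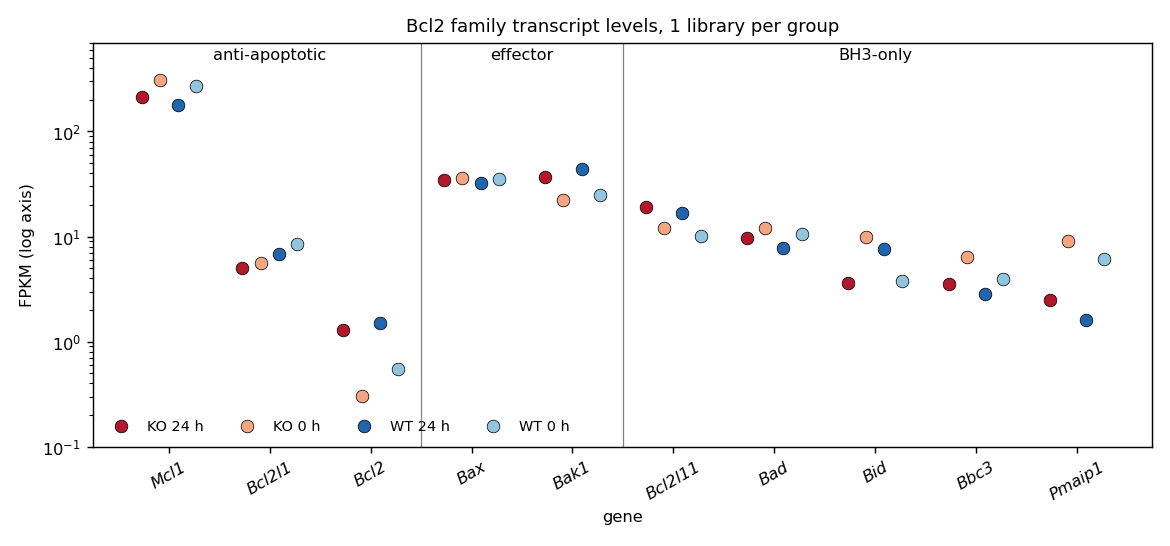
FPKM of the 10 Bcl2 family genes on a log axis, with 1 point per library, ordered by role and coloured by group. Mcl1 lies between 180.0 and 309.6 FPKM, the effectors between 22.3 and 43.5, and Bid is the gene whose KO and WT points change places between 0 h and 24 h.

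The effectors were close to each other in level, and Bak1 had the larger differences with time. Bax was at 34.5 FPKM in the KO at 24 h and 35.7 in the KO at 0 h, against 32.0 in WT at 24 h and 35.2 in WT at 0 h. Those 4 values span a small range, and no Bax difference exceeded 0.13 on the log2 scale. Bak1, which sits in the outer membrane even in healthy cells, was at 37.2 FPKM in the KO at 24 h and 22.3 in the KO at 0 h. In WT it was at 43.5 FPKM at 24 h and 24.7 at 0 h. Both 24 h libraries were above both 0 h libraries, by 0.71 in the KO and 0.79 in WT, and the KO was 0.22 below WT at 24 h and 0.14 below it at 0 h. Bak1 exceeded Bax at 24 h, with ratios of 1.08 in the KO and 1.36 in WT, and was below it at 0 h, with ratios of 0.625 and 0.702. Exons of both genes overlap those of another annotated gene, Gm45808 on the same strand for Bax and Ggnbp1 on the opposite strand for Bak1.

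Bid was the member that departed most between the genotypes. Bid (ENSMUSG00000004446, GRCm38 chromosome 6, 120891930 to 120916853, − strand) encodes the protein that caspase-8 cleaves to carry a death receptor signal to the mitochondrion. It was at 3.59 FPKM in the KO at 24 h and 10.0 in the KO at 0 h, against 7.70 in WT at 24 h and 3.75 in WT at 0 h. The KO library was thus the higher one at 0 h and the lower one at 24 h, and the pair of low values, like the pair of high values, came from libraries that differ in both genotype and time. At 0 h the KO held 2.68 times the WT level, a log2 difference of 1.22. At 24 h it held 0.467 times the WT level, or −0.92 on the log2 scale. Within the KO, Bid was lower at 24 h than at 0 h (−1.27), while within WT the difference was 0.87 in the other direction. The KO response minus the WT response came to −2.14. The calls depend on the pseudocount: with 5 FPKM in place of 1, the 0 h difference was 0.78 and the KO response −0.81, both under 2-fold, and with 0.1 FPKM the 24 h difference reached −1.08.

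Bid was the only kept member past 2-fold between genotypes at 0 h, 1 of 9, where 0.880% of the 11479 genes in that comparison were higher by 2-fold or more, and no member was lower, against 0.871%. At 24 h none of the 10 members passed 2-fold, where 0.832% of 11302 genes were higher and 0.619% lower, or 1.45% in either direction. In the comparison of the responses 1 of 10 was lower by 2-fold or more, where 1.16% of 12000 genes were, and none was higher, against 1.27% (2.42% in either direction). Of those 12000 genes, 43 (0.358%) had a difference between the responses at least as large as that of Bid, in either direction. Opposite responses of at least 0.5 on the log2 scale in the genotypes were seen for 59 of them (0.492%), Bid included. The difference of the responses was not tested, since each of its 4 terms is 1 library.

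**Figure D2:**
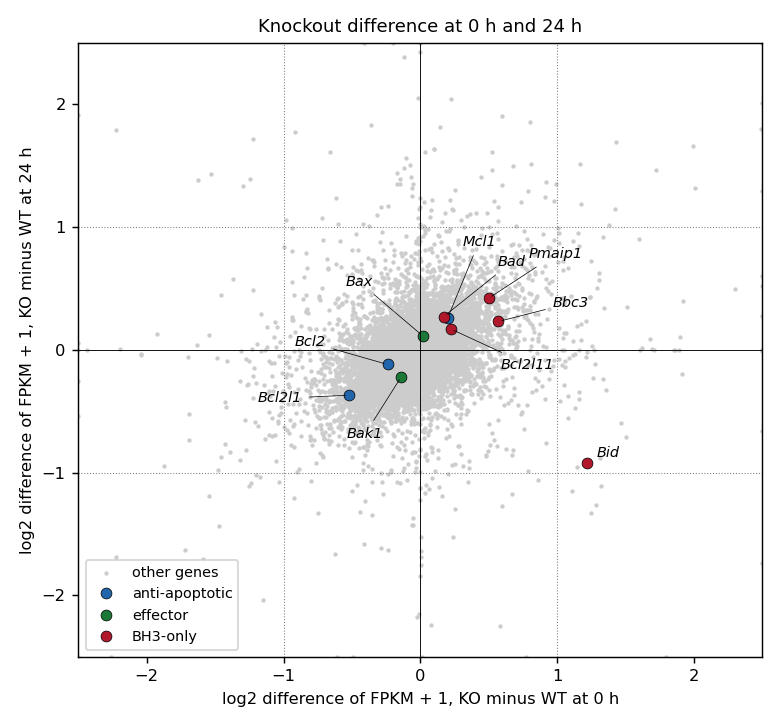
Log2 difference of FPKM + 1 between KO and WT at 0 h (horizontal axis) and at 24 h (vertical axis) for the 10 members, coloured by role, with the other expressed genes in grey. Dotted lines mark 2-fold and genes beyond the axes are drawn at the edge. Bid lies alone among the members at 1.22 and −0.92, and the other 9 lie within 0.57 of 0 on both axes.

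The depth behind Bid was modest. With the 5 annotated transcripts of 458 to 2415 nt, its 4 values correspond to an estimated 178 and 490 fragments in the KO at 24 h and 0 h, and to 398 and 199 in WT, if the longest transcript is taken. The shortest one gives 34 and 93 in the KO and 75 and 38 in WT. Counting error at the lowest library is then about 7.5% on the longest transcript, and the values per transcript were not analysed here. Bid and Bcl2l13 lie tail to tail on opposite strands and share 628 nt of exon sequence. Bcl2l13, itself a Bcl2 relative of the mitochondrial membrane, was at 5.72 and 4.22 FPKM in the KO at 24 h and 0 h, against 4.94 and 3.85 in WT. The part of reads from the shared stretch in the values of either gene was not tested.

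Among 6591 named protein-coding genes that reached 5 FPKM somewhere, the nearest to Bid over the 4 libraries were Golph3l, Rnf6 and Zfp263. Likeness was measured as the distance between log2 values of FPKM + 1 centred on their mean, and came to 0.25, 0.28 and 0.33. Golph3l, for example, was at 9.15 and 27 FPKM in the KO at 24 h and 0 h, against 23.4 and 10.5 in WT. With 4 libraries such a match is a description only.

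The start of Bid is shown because its transcript level differed most between the genotypes. The window, chr6:120916775-120917074 on the − strand of GRCm38.p6, holds the 250 bases before the RefSeq start site and 50 after it. It has 22 CpG and a GC content of 63.3%.
Bid: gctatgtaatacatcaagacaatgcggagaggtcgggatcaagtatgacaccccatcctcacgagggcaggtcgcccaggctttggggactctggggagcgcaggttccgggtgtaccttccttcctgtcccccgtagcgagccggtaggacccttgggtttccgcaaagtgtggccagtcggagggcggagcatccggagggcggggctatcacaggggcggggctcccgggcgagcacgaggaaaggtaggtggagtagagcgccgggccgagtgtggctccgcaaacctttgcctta
Motifs were searched on both strands in the 15 such windows found for 9 members. They were TTCNNNNGAA (STAT6 type, in 6.95% of all 32851 windows), TGTTTAC (FOXO type, 3.65%), TGATGCAAT (CHOP type, 0.192%), GCGTGGGCG (EGR type, 0.612%) and GGGACTTTC (NF-kB type, 0.353%). The Bid window matched none of these. One window of Bcl2l1 matched the STAT6 type, and 1 window each of Bcl2l11 and Bbc3 matched the FOXO type.

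Bcl2l11 encodes Bim, a strong activator of Bax and Bak1 and a known target of FOXO factors. It was at 19.1 FPKM in the KO at 24 h and 12 in the KO at 0 h, against 16.9 in WT at 24 h and 10.2 in WT at 0 h. Both 24 h values exceeded both 0 h values, with log2 differences of 0.63 in the KO and 0.67 in WT. Between the genotypes the differences were 0.17 at 24 h and 0.22 at 0 h. Bcl2l11 was the most abundant BH3-only member at 24 h, with 49.8% of their summed FPKM in the KO and 45.8% in WT, against 24.3% and 29.6% at 0 h. At 0 h Bad was level with it in the KO (24.2%) and above it in WT (30.5%). The window with the FOXO type match, chr2:128125788-128126087 on the + strand of GRCm38.p6, is shown with the match, read on the reverse strand, in capitals at −227 from the start site.
Bcl2l11: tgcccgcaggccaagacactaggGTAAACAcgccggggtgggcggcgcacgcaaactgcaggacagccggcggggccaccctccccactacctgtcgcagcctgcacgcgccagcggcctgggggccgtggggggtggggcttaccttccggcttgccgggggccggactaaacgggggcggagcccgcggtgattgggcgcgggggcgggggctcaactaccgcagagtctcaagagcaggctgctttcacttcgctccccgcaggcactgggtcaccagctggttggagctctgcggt

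Pmaip1 (ENSMUSG00000024521) encodes Noxa, which binds Mcl1 and promotes its degradation. It was at 2.51 FPKM in the KO at 24 h and 9.01 in the KO at 0 h, against 1.62 in WT at 24 h and 6.07 in WT at 0 h. Both 24 h libraries lay below both 0 h libraries. The 24 h level was 0.278 times the 0 h level in the KO (log2 −1.51) and 0.268 times in WT (−1.43). The KO was above WT at both times, by 0.42 at 24 h and 0.50 at 0 h, neither of them 2-fold. With a pseudocount of 5 FPKM the differences with time were −0.90 in the KO and −0.74 in WT, under 2-fold. Pmaip1 made up 6.53% and 18.2% of the BH3-only sum in the KO at 24 h and 0 h, and 4.4% and 17.6% in WT. Nearest to it over the 4 libraries were Gpx3, Slc46a3 and the interferon-induced Rnf213, at distances of 0.10, 0.11 and 0.13. The 10 macrophage markers summed to 6478 FPKM in the KO at 24 h and 15835 at 0 h, against 6459.9 and 18868 in WT. That sum and the neutrophil sum given above were thus lower at 24 h in both genotypes as well, and their part in the result was not tested.

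Bbc3 encodes Puma, a p53 target that binds every anti-apoptotic member. It was at 3.5 FPKM in the KO at 24 h and 6.40 in the KO at 0 h, against 2.84 in WT at 24 h and 3.98 in WT at 0 h. The KO at 0 h was the highest library. Its log2 difference from WT was 0.23 at 24 h and 0.57 at 0 h, and the 24 h minus 0 h difference was −0.72 in the KO and −0.37 in WT. Bad, which 14-3-3 proteins hold in the cytosol when it is phosphorylated, was at 9.66 FPKM in the KO at 24 h and 12 in the KO at 0 h. Its WT values were 7.81 FPKM at 24 h and 10.5 at 0 h. No Bad difference exceeded 0.39 on the log2 scale, and its exons overlap those of Gpr137 on the opposite strand.

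The response to 24 h of IL-4 was alike in sign in both genotypes for every member but Bid. In the KO, 2 of 10 members were lower by 2-fold or more, Pmaip1 and Bid, where 5.99% of 11577 genes were. In WT, 1 of 10 was lower, Pmaip1, where 6.26% of 11687 genes were, and no member was higher in either genotype, against 5.16% and 4.76% of genes. These shares rest on 1 or 2 genes. The median member difference was −0.21 in the KO and −0.22 in WT, beside medians over all genes of 0.03 and 0.02.

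**Figure D3:**
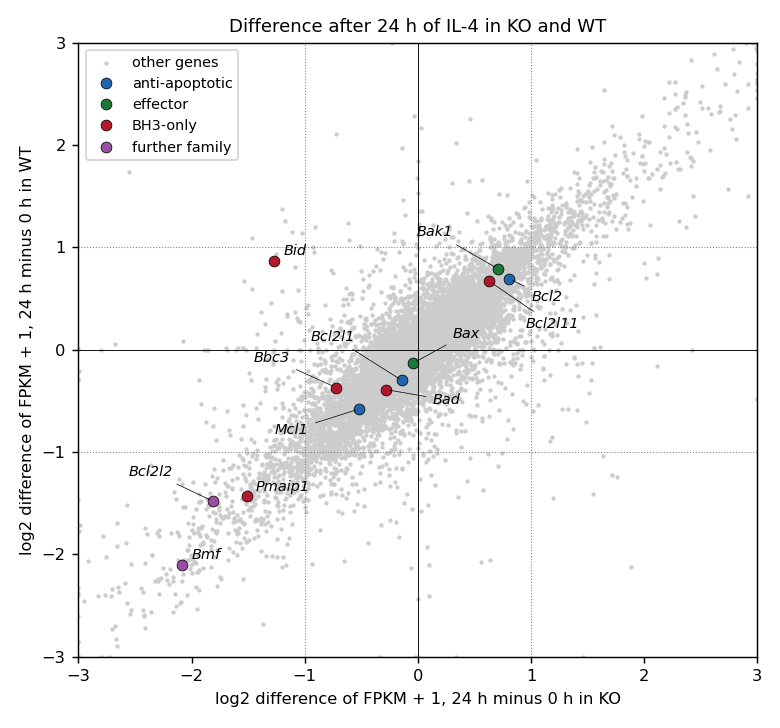
Log2 difference of FPKM + 1 between 24 h and 0 h in the KO (horizontal axis) and in WT (vertical axis) for the 10 members and for Bmf and Bcl2l2, with the other expressed genes in grey. Dotted lines mark 2-fold and genes beyond the axes are drawn at the edge. Pmaip1 lies at −1.51 and −1.43, Bmf at −2.08 and −2.10, and Bid at −1.27 and 0.87.

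Summed by role, the BH3-only members came to 38.4 FPKM in the KO at 24 h and 49.5 in the KO at 0 h, against 36.9 in WT at 24 h and 34.5 in WT at 0 h. The KO at 0 h was the highest of the 4, at 1.43 times WT, and the 24 h sums were near each other, at 1.04 times. Without Bid the sum was 1.28 times WT at 0 h and 1.19 times at 24 h. The effectors summed to 71.8 and 57.9 FPKM in the KO at 24 h and 0 h, against 75.5 and 59.9 in WT, within 0.07 on the log2 scale between genotypes. The anti-apoptotic sum was 5.77 times the BH3-only sum in the KO at 24 h and 6.38 times at 0 h, against 5.11 and 8.05 times in WT. Mcl1 stood to Bcl2l11 at 11.3 in the KO at 24 h and 25.7 at 0 h, against 10.7 and 26.4 in WT, a ratio lower at 24 h in both genotypes. These are ratios of transcript levels, and protein was not measured.

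**Figure D4:**
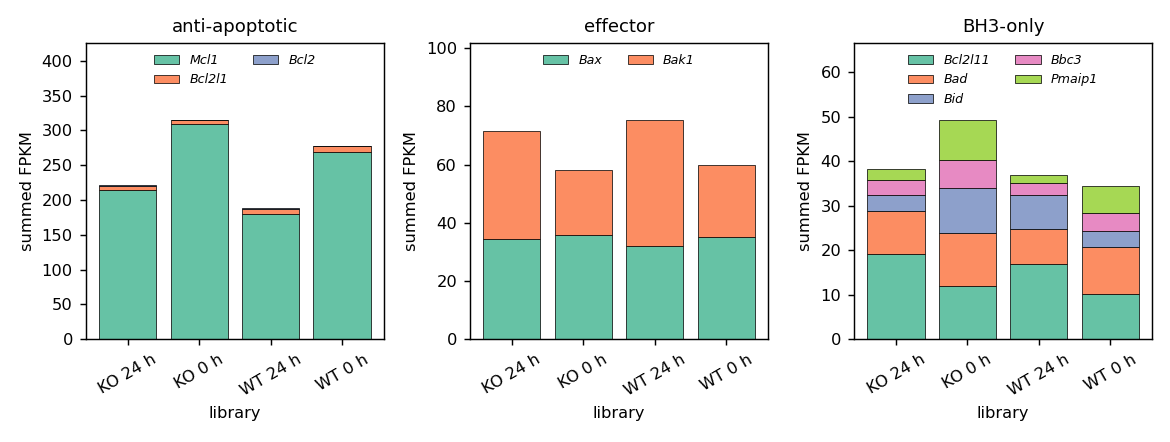
Summed FPKM of the members of each role in the 4 libraries, stacked by gene, on linear axes that start at 0 and differ between panels. The anti-apoptotic bars are almost wholly Mcl1, and the BH3-only bar is tallest in the KO at 0 h, at 49.5 FPKM.

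Further relatives of the family were described from a list of 18, of which 11 entered each comparison. Between genotypes 0 of 11 passed 2-fold at 24 h and 0 of 11 at 0 h, where 1.45% and 1.75% of all genes did, so a count of 0 is near the background. With time, 2 of 11 were lower at 24 h in each genotype, where 5.99% of genes were in the KO and 6.26% in WT. Bmf, a BH3-only gene whose product is tethered to the cytoskeleton, was at 2.03 FPKM in the KO at 24 h and 11.8 in the KO at 0 h, against 1.58 in WT at 24 h and 10.0 in WT at 0 h. The log2 differences of −2.08 in the KO and −2.10 in WT were beyond those of Pmaip1. With Bmf added, the BH3-only sum was 40.4 FPKM in the KO at 24 h and 61.3 at 0 h, against 38.4 and 44.6 in WT. That sum was thus lower at 24 h in WT as well, where the sum of the members alone was slightly higher at 24 h. Bcl2l2 (Bcl-w), an anti-apoptotic relative, was at 0.746 FPKM in the KO at 24 h and 5.14 in the KO at 0 h, against 1.80 in WT at 24 h and 6.81 in WT at 0 h. Its differences were −1.81 in the KO and −1.48 in WT, and it shares exons on the same strand with Gm20521, which makes its values uncertain.

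The Bcl2a1 genes encode A1, an anti-apoptotic NF-kB target of myeloid cells, and are near-identical copies whose reads can be split between them, which makes the value of each copy uncertain. Bcl2a1b also shares exons on the same strand with Gm29094, which adds to that uncertainty. Bcl2a1b was the most abundant, at 60.8 FPKM in the KO at 24 h and 48.9 in the KO at 0 h, against 106 in WT at 24 h and 93.7 in WT at 0 h. Both KO values lay below both WT values, by 0.79 at 24 h and 0.92 at 0 h on the log2 scale. The other copies did not share this at 24 h: Bcl2a1d was at 32.2 FPKM in the KO and 28.8 in WT (0.16), and Bcl2a1a at 11.0 in the KO and 11.9 in WT (−0.10). At 0 h Bcl2a1d differed by −0.33 and Bcl2a1a by −0.61. Summed over the 4 copies in the list, A1 came to 104 FPKM in the KO at 24 h and 74.1 at 0 h, against 147 and 128 in WT, or 0.709 and 0.578 times WT. Of 11 kept neutrophil markers, 9 were below WT in the KO at 24 h and 10 at 0 h, with medians of −0.32 and −0.47. Of the kept stromal and platelet markers, 4 of 4 were below WT in the KO at 24 h and 7 of 7 at 0 h, with medians of −0.57 and −0.69. The median over all genes was −0.05 at both times. The part of either list in this difference, and in the lower Bcl2l1 of the KO, was not tested. With Bcl2a1a, Bcl2a1b, Bcl2a1d and Bcl2l2 added, the anti-apoptotic sum was 326 FPKM in the KO at 24 h and 395 at 0 h. In WT it was 337 and 413 FPKM, so the small KO excess seen with Mcl1, Bcl2l1 and Bcl2 alone was no longer there. With time this wider sum differed by −0.27 (log2) in the KO and −0.29 in WT, beside −0.60 and −0.21 for the BH3-only sum with Bmf. The ratio of these wider sums was thus higher at 24 h in the KO, where that of the members was lower. Between genotypes at 24 h they differed by −0.04 and 0.07, so their ratio was lower in the KO, where that of the members was higher.

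The other relatives showed smaller differences or none that could be read. Bcl2a1a was between 7.22 and 11.9 FPKM and Bcl2a1d between 17.9 and 32.2. Bcl2l12 ran between 1.78 and 2.86 FPKM and Bnip1 between 1.68 and 2.52. Bnip2 lay between 23.4 and 33.2 FPKM, and the mitophagy receptor genes Bnip3 and Bnip3l between 3.94 and 8.05 and between 32.9 and 40.9. Bcl2a1c, Bok, Bik and Bcl2l14 stayed at or below 0.145 FPKM in all libraries, and Bcl2l10, Hrk and Bcl2l15 were listed at 0.

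Genes that act around the family were described from 8 lists, the further relatives included, which hold 131 measured genes beyond the members. Between genotypes none of the 114 kept at 0 h and none of the 111 kept at 24 h passed 2-fold, where 1.75% and 1.45% of all genes did. Their median differences of −0.04 and −0.03 stood beside −0.05 for all genes at both times. After 24 h of IL-4, 7 were higher and 7 lower in the KO, and 7 were higher and 6 lower in WT, each out of 114. That is near the share of all genes past 2-fold in either direction, 11.1% in the KO and 11.0% in WT.

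Downstream of the pore, the executioner caspase gene Casp6 and the cytochrome c gene Cycs were higher at 24 h in both genotypes. Casp6 was at 14 FPKM in the KO at 24 h and 4.26 in the KO at 0 h, against 14.1 in WT at 24 h and 4.15 in WT at 0 h (1.51 and 1.55). Cycs, which also carries electrons in respiration, was at 27.7 and 9.42 FPKM in the KO, against 29.5 and 9.77 in WT (1.46 and 1.5). Of the other 9 genes of that list, the initiator caspase gene Casp9 was lower in WT (−1.03) and stood at −0.62 in the KO. The difference between those responses was not tested. All 11 kept cycling cell markers had positive differences with time in each genotype. Their medians were 0.35 in the KO and 0.36 in WT, beside 0.03 and 0.02 for all genes. Of them, 2 (Pcna and Mcm5) were higher by 2-fold or more in each genotype. The share of all genes was 5.16% in the KO and 4.76% in WT. The 12 listed cycling markers summed to 284 and 95.8 FPKM in the KO at 24 h and 0 h, against 273 and 112 in WT. Most of that was Pcna (238 and 70.1 FPKM in the KO, 214 and 74.0 in WT). Between genotypes 10 of the 11 kept markers were below WT in the KO at each time. The medians were −0.35 at 24 h and −0.41 at 0 h, beside −0.05 for all genes at both times. The part of these markers in the differences with time was not tested. Some genes are given for their place in the pathway and were chosen after their values were seen, namely Casp8, Trp53, Ddit3, Foxo3 and Tnfsf10. Casp8, whose product cleaves Bid, lay between 33.9 and 41.0 FPKM in all libraries. Of 12 kept genes for inhibitors of apoptosis proteins and their antagonists, 0 passed 2-fold in each comparison. The share of all genes was 1.45% and 1.75% between genotypes at 24 h and 0 h, 11.1% and 11.0% with time in the KO and WT, and 2.42% for the difference of the responses.

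Among regulators of the members, the kinase gene Pim3 was higher at 24 h in the KO (1.40) and in WT (1.46), and the Bcl2-binding co-chaperone gene Bag3 in both as well (1.27 and 1.07). Ghitm, of the same superfamily as the Bax inhibitor genes, was at 48.8 and 40.2 FPKM in the KO at 24 h and 0 h, against 53.1 and 22.9 in WT, so that WT at 0 h was the low library. Dynll1, a dynein light chain gene whose product binds Bim, was at 17 and 7.55 FPKM in the KO at 24 h and 0 h, against 15 and 13 in WT, so that the KO at 0 h was the low one. In the p53 list Gadd45a was lower at 24 h in the KO (−1.55) and in WT (−2.24), and Sesn1 likewise (−1.46 and −1.42). Sesn2 was lower in the KO (−1.13), with −0.97 in WT. Cdkn1a, which encodes the cell cycle inhibitor p21, was higher at 24 h in WT (1.29) and stood just under 2-fold in the KO (0.99). The p53 gene Trp53 itself lay between 10.3 and 12.1 FPKM. Of the stress factors that induce BH3-only genes, Atf3 was higher at 24 h in the KO (1.41) and in WT (1.62), while Ddit3 was between 14.3 and 19.6 FPKM. Xbp1 passed 2-fold in the KO (1.17), with 0.84 in WT. Foxo4 was lower in WT (−1.01), with −0.56 in the KO, and Foxo3 had differences of −0.52 in the KO and −0.47 in WT. In the death receptor list 1 of 10 kept genes, the ligand gene Tnfsf10 (TRAIL), was lower by 2-fold or more in the KO response (−1.48) and in the difference of the responses (−1.18), at no more than 3.4 FPKM. Of all genes 5.99% and 1.16% were lower in those comparisons.

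**Figure D5:**
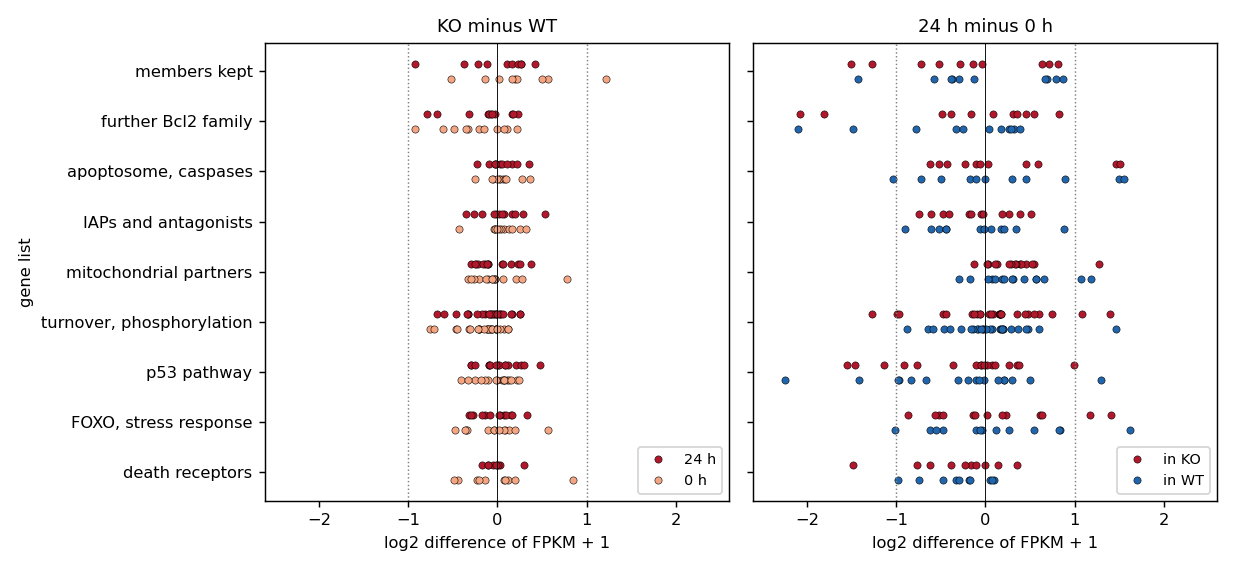
Log2 difference of FPKM + 1 of each kept gene in the 10 members and in 8 lists of related genes, for KO minus WT at 24 h and 0 h (left) and for 24 h minus 0 h in the KO and WT (right). Dotted lines mark 2-fold. On the left, the Bid point at 1.22 is the one beyond the lines.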

How the data were processed

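Total RNA (1 µg) went into sequencing libraries made with the SMARTer kit for mRNA, per the labels' protocols. STAR and StringTie with GRCm38 (mm10) are named in the submitters' processing notes. The values deposited by the authors are FPKM for 52550 Ensembl genes. The header names no unit, and FPKM was read from column totals that differ between libraries. The sources used here do not give strandedness, annotation release or versions.

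Symbols were found for 52403 genes in a reference table that pairs Ensembl IDs with names, and genes sharing a symbol were summed to 52476 names. Differences are log2 ratios of FPKM + 1, with a filter of 1 FPKM in at least 1 library of the comparison. The members, lists and motifs were chosen with earlier results of these data known. The named genes are all members, the further family genes measured, up to 4 genes of each list past 2-fold per comparison (at 5 FPKM or more in 1 library), and the 3 nearest genes of each member past 2-fold. The report says where other genes were added. Depth was estimated from genes of 1 exon, as the step in FPKM × kb that best matched their low values. It is a rough estimate, and fragment numbers and counting errors made from it are too. Lists of markers of lymphocytes, stroma and platelets, cycling cells and IL-4 targets were also computed. The 11 lymphocyte markers summed to 5.25 and 28.3 FPKM in the KO at 24 h and 0 h, against 7.98 and 39.6 in WT. Of 12 IL-4 targets, 11 were higher at 24 h in each genotype, where 5.16% of all genes were in the KO and 4.76% in WT. Pseudocounts of 0.1 and 5 FPKM, no filter, a filter at 5 FPKM and 2 rescalings were tried. Sequences are from RefSeq (promoters, GRCm38.p6) and GENCODE M21 transcripts, which were translated to find the BH3 core. For 1 member no sequence is shown, and some items computed are not reported here. Python 3.11.15, numpy 2.4.6 and pandas 2.3.3 were used.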

Additional observations from a re-analysis of the deposited data

Results flagged for a closer look

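Bid had opposite differences in groups that share a contrast. The 24 h minus 0 h difference was −1.27 in the KO and 0.87 in WT, and the KO minus WT difference was −0.92 at 24 h and 1.22 at 0 h, which makes −2.14 for the KO response minus the WT response. The difference was not tested, since each group held 1 library. Only differences of at least 0.5 on the log2 scale in each direction were singled out, among the members and the genes named from the lists.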

How the results depend on the processing

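No paired analysis was possible because each group held 1 library, and leaving out a library leaves no comparison. With a pseudocount of 0.1 FPKM the genes past 2-fold numbered 438 and 388 for KO minus WT at 0 h and 24 h, 2031 and 1971 for the IL-4 response in the KO and WT, and 662 for the difference of the responses. A pseudocount of 5 gave 43, 39, 592, 557 and 72 in the same order. The filter at 5 FPKM gave 106 and 93 between genotypes and 141 for the difference of the responses. Members past 2-fold came to 1 at 24 h between genotypes (Bid, −1.08) and 3 in the WT response (Bcl2 at 1.30, Bid at 1.02 and Pmaip1) with the pseudocount of 0.1. With the pseudocount of 5 they came to 0 at 0 h and 0 in either response, where Bid stood at 0.78 at 0 h and −0.81 in the KO response, and Pmaip1 at −0.90 in the KO and −0.74 in WT. Bcl2 reached 1.77 in the KO response with the pseudocount of 0.1. For genes of the related lists the counts were 2 at 0 h and 2 at 24 h between genotypes with 0.1, and 8 in each response and 0 for the difference of the responses with 5, which was also 0 under the filter at 5 FPKM. Both rescalings moved the median of all genes by 0.05 at most and changed no member's call. No called member changed sign under any of these settings. Depth limits Bcl2 most among the members, and calls of Bcl2, Bid and Pmaip1 changed with the pseudocount.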
